A study of Danio rerio with 9 samples.

Results

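The 8 genes described here encode glucose transporters known from the vertebrate kidney, and they were taken from the table by symbol, *slc5a1*, *slc5a2*, *slc2a2*, *slc2a1a*, *slc2a1b*, *slc2a12*, *slc2a8* and *slc2a10*, among the 30628 genes it lists. Each symbol had 1 row. Whole kidneys of 12-month-old zebrafish of the WIK strain were sequenced as RNA, in 4 libraries from males and 5 from females, all with the genotype label WT and with no treatment named. The male libraries are M1, M2, pkd1M1 and pkd1M4 and the female libraries F1, F2, F3, F4 and F6. For pkd1M1 and pkd1M4 the column headers hold both pkd1 and wt, and no source used here explains the prefix. The sources do not say how many fish gave a library, so p-values measure the spread between these libraries.

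Glucose enters the tubule fluid by filtration and is taken back by the proximal tubule in 2 steps. Sodium-glucose cotransporters (SGLTs, family SLC5) draw it with sodium across the brush border into the cell, and facilitative transporters (GLUTs, family SLC2) let it leave through the basolateral side. In mammals SGLT2, encoded by *slc5a2*, takes up most of the glucose in the early proximal tubule with low affinity, and SGLT1, encoded by *slc5a1*, recovers the remainder further along with high affinity. GLUT2, encoded by *slc2a2*, and GLUT1, which zebrafish carry as *slc2a1a* and *slc2a1b*, are the basolateral exits of the early and late segments in mammals. GLUT12 (*slc2a12*) is another plasma membrane carrier, GLUT8 (*slc2a8*) sits mainly on internal membranes, and GLUT10 (*slc2a10*) is the transporter mutated in human arterial tortuosity syndrome.

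Between male and female kidneys, the cotransporter gene *slc5a1* was the 1 gene of the 8 that passed the test. It was 5.79-fold higher in males by the means, while the other cotransporter gene *slc5a2* and the exit transporter *slc2a2* did not pass the test. By the deposited values *slc5a1* was the more abundant cotransporter in all 4 male libraries and *slc5a2* in all 5 female libraries. This comparison between genes rests on transcript length having been divided out of the values. The other 5 genes did not pass the test, and 4 of the 8 averaged under 10 CPM in both sexes.

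Total estimated counts ranged from 24902978 to 52986838 per library, and 22148 genes passed the filter on low counts, among them all 8 transporters. Levels are counts scaled to a common library size (CPM) after TMM normalization. A call needed an adjusted p below 0.05 and a change of more than 1.5 on the log2 scale in either direction, with male over female on the log2 scale, so that positive values mean more in males. F1 stood apart by its egg coat and oocyte genes, which summed to 2538 CPM there. In the other females they summed to 25.4 (F2), 58.4 (F3), 92.8 (F4) and 3.24 (F6) CPM, against 2.29 to 3.27 CPM in males. Only F6 lay at the level of the males. Of these 7 genes 4 were called by edgeR, all higher in females. DESeq2 called 0 of the 7 and gave 6 of them no adjusted p. Among the kidney markers, 9 of 10 proximal tubule genes and all 8 distal tubule genes passed the filter, and *aqp8b* had no counts in any library. The pancreas markers summed to between 157 and 249 CPM in males and between 97.4 and 346 CPM in females, and the testis markers to between 19.4 and 35.7 CPM in males and between 2.96 and 26.2 CPM in females. Most of the pancreas sum was *cpa5*, with means of 183 CPM in males and 172 CPM in females. The next highest of that list, *cel.1*, averaged 4.17 CPM in males and 3.51 CPM in females. Most of the testis sum in males was *odf3b*, which averaged 23.2 CPM there and 7.13 CPM in females. It was the 1 called of 3 testis markers tested (log2 fold change 1.70, adjusted p = 0.0243, edgeR). The others tested were *dmrt1*, at a log2 fold change of 1.17, and *ddx4*, at -3.37. The gene *ddx4* averaged 0.375 CPM in males and 3.90 CPM in females.

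The sodium-glucose cotransporter *slc5a1* (chromosome 10, 17135631 to 17159761 in GRCz11) gave 503 (M1), 273 (M2), 478 (pkd1M1) and 338 (pkd1M4) CPM in males, against 47.8 (F1), 48.3 (F2), 79.8 (F3), 44.3 (F4) and 124 (F6) CPM in females. The lowest male library, M2, lay above the highest female library, F6, so the sexes did not overlap. The mean was 398 ± 110 CPM in the males (n = 4) and 68.8 ± 33.8 CPM in the females (n = 5, ± SD). On the log2 scale the change was 2.53 with a standard error of 0.34 (adjusted p = 0.00134 in edgeR's quasi-likelihood fit). Without pkd1M1 and pkd1M4 the log2 fold change was 2.49 (edgeR, adjusted p = 0.0218), and without F1 it was 2.43 (edgeR, adjusted p = 0.00414).

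With 1 of 8 transporters called, and that 1 higher in males, the count stands beside 6.54% of all genes tested that were called, 3.48% higher in males and 3.06% higher in females. The median log2 fold change of the 8 transporters was 0.17, and that of all genes tested was -0.03. In 1 of the 8, *slc5a1*, male and female libraries did not overlap, as was so for 16.5% of all genes tested. Without the limit on the fold change 1 of the 8 passed, beside 13.2% of all genes. An unadjusted p under 0.05 in edgeR was found for 2 of the 8 and for 5937 of the 22148 genes tested. At both thresholds DESeq2, the alternative test, called 1835 of the 22148 genes. These shares and counts of all genes tested also stand beside the counts for relatives, partners and markers.

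**Figure D1:**
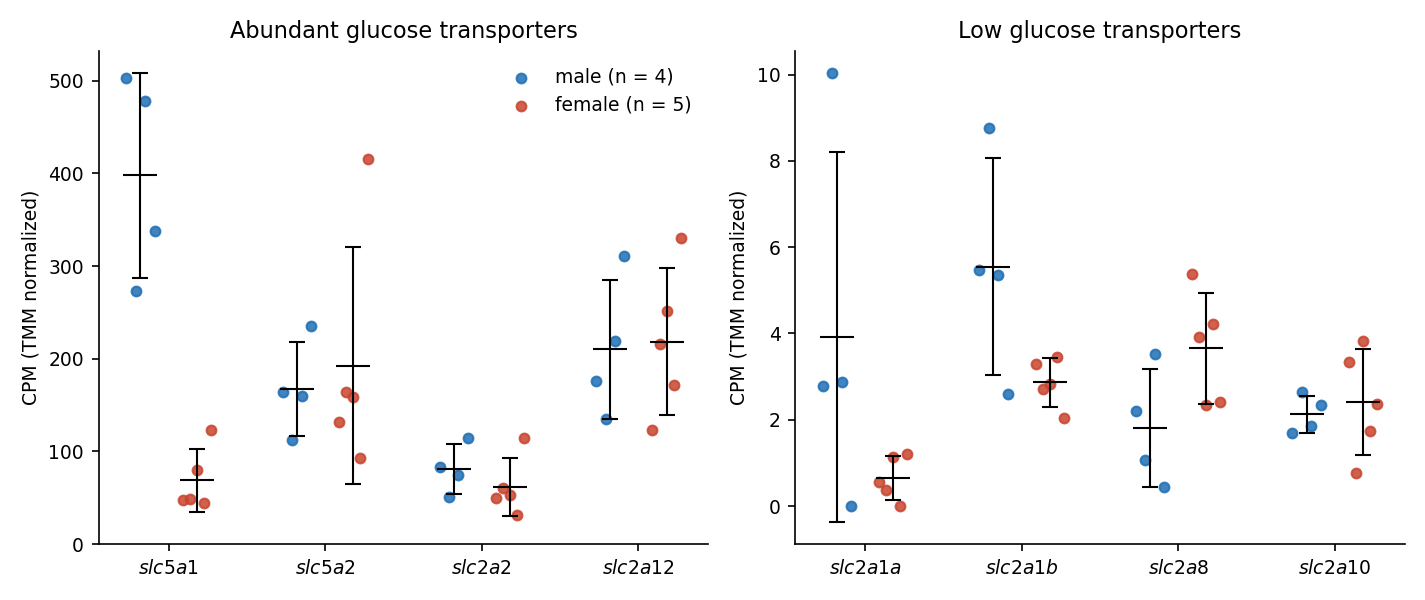
CPM after TMM normalization of the 8 glucose transporters in each library, with 4 male (blue) and 5 female (red) libraries; horizontal lines are means and bars are 1 SD, and the vertical scales of the panels differ. *slc5a1* lies between 273 and 503 CPM in males and between 44.3 and 124 CPM in females, and every other gene overlaps between the sexes.

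The other cotransporter gene, *slc5a2* (chromosome 15, 14602520 to 14625373), gave 164 (M1), 112 (M2), 160 (pkd1M1) and 235 (pkd1M4) CPM in males, against 132 (F1), 164 (F2), 159 (F3), 93.0 (F4) and 415 (F6) CPM in females. F6 stood far above the other females, and the other 4 females lay within or near the range of the males. The mean was 168 ± 50.8 CPM in the males (n = 4) and 193 ± 128 CPM in the females (n = 5, ± SD), which gave -0.20 ± 0.40 (SE) on the log2 scale (edgeR, adjusted p = 0.816). Library F6 decided the sign of this value, which was 0.29 without it (edgeR, adjusted p = 0.527).

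The balance of the cotransporters lay on opposite sides in male and female libraries. As a share of the summed deposited values of *slc5a1* and *slc5a2*, *slc5a2* made up 24.6 (M1), 29.1 (M2), 25.03 (pkd1M1) and 41.0 (pkd1M4) percent in males, against 73.4 (F1), 77.2 (F2), 66.6 (F3), 67.7 (F4) and 77.1 (F6) percent in females. The mean share was 30.0% ± 7.67 in the males (n = 4) and 72.4% ± 5.03 in the females (n = 5, ± SD). Of the males pkd1M4 was nearest to an even split, and F6, far above the other females in *slc5a2* itself, had a share within their range. The share is a description without a test.

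**Figure D2:**
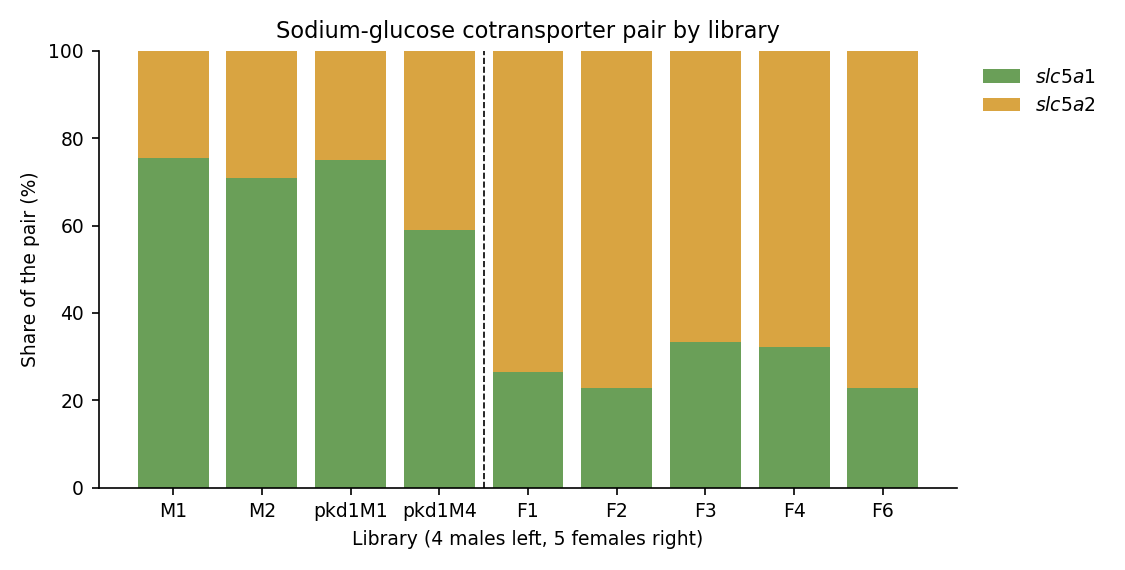
Share of *slc5a1* (green) and *slc5a2* (yellow) in their summed deposited values, in percent, for each library, with the 4 males left of the dashed line and the 5 females right of it. *slc5a2* makes up 24.6% to 41.0% of the pair in males and 66.6% to 77.2% in females.

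The exit transporter *slc2a2* (chromosome 2, 25816843 to 25837986) had 83.6 (M1), 50.5 (M2), 74.8 (pkd1M1) and 115 (pkd1M4) CPM in males, against 49.7 (F1), 60.4 (F2), 52.6 (F3), 31.5 (F4) and 115 (F6) CPM in females. Its highest libraries, pkd1M4 and F6, were of different sexes and nearly equal, and both were also the highest of their sex for *slc5a2*. The mean was 81.0 ± 26.6 CPM in the males (n = 4) and 61.8 ± 31.5 CPM in the females (n = 5, ± SD) (log2 fold change 0.39 ± 0.35 SE, adjusted p = 0.551, edgeR). GLUT2 is also a transporter of liver and pancreatic islets. The liver markers summed to between 103 and 1651 CPM in males and between 315 and 1277 CPM in females, with pkd1M4 highest. By edgeR 0 of 7 were called, and 2 had an unadjusted p under 0.05. DESeq2 called 2 of opposite direction, *apoa2* and *cp*, and gave 2 of the 7 no adjusted p. The apolipoprotein gene *apoa2* averaged 205 CPM in males and 15.2 CPM in females, and the ceruloplasmin gene *cp* averaged 25.5 CPM in males and 114 CPM in females. The most abundant of the list, the transferrin gene *tfa*, averaged 190 CPM in males and 461 CPM in females (log2 fold change -1.28, adjusted p = 0.648, edgeR), so the list had no common direction. The part of liver cells in the level of *slc2a2* was not tested. The insulin gene *ins* averaged 0.483 CPM in males and 0.623 CPM in females. The span of *slc2a2* shares 385 bases with that of *tnika*, and the library kit named in the labels does not mark strand.

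The GLUT12 gene *slc2a12* (chromosome 23, 31608259 to 31633310) was among the most abundant transporters of both sexes. It had 176 (M1), 135 (M2), 219 (pkd1M1) and 311 (pkd1M4) CPM in males, against 123 (F1), 216 (F2), 251 (F3), 171 (F4) and 331 (F6) CPM in females. The means were almost equal, at 210 ± 75.2 CPM in the males (n = 4) and 219 ± 79.1 CPM in the females (n = 5, ± SD), and the log2 fold change was -0.06 with a standard error of 0.31 (adjusted p = 0.938, edgeR). As for *slc5a2* and *slc2a2*, pkd1M4 was the highest male and F6 the highest female.

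Both zebrafish genes of GLUT1, the transporter of human red blood cells, of brain vessels and many other tissues in mammals, were low in the kidney. The gene *slc2a1b* (chromosome 6, 48068695 to 48094342) had 5.46 (M1), 8.77 (M2), 5.36 (pkd1M1) and 2.60 (pkd1M4) CPM in males, against 3.28 (F1), 2.71 (F2), 2.83 (F3), 3.46 (F4) and 2.04 (F6) CPM in females. In 3 of the 4 males it was above every female, and pkd1M4 fell among the females. The change was 0.95 ± 0.41 (SE) on the log2 scale, with an unadjusted p of 0.0414 and an adjusted p of 0.165 in edgeR, which did not pass the threshold.

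The paralog *slc2a1a* (chromosome 23, 22200467 to 22212635) had 2.77 (M1), 10.03 (M2), 2.88 (pkd1M1) and 0 (pkd1M4) CPM in males, against 0.557 (F1), 0.367 (F2), 1.14 (F3), 0 (F4) and 1.20 (F6) CPM in females. The mean was 6.01-fold higher in males, with the same order of size as for *slc5a1*, yet M2 supplied most of it and 1 library of each sex had no count. A count of 0 allows up to 0.100 CPM in pkd1M4 and 0.0684 CPM in F4 at a floor of 3 counts, which covers counting error only. This floor takes 1 unit of the deposited values as 1 read, which values scaled from TPM need not meet. The log2 fold change was 2.58 with a standard error of 1.39 (adjusted p = 0.275, edgeR), and without M2 it was 1.53. As a share of the GLUT1 pair, *slc2a1a* made up 0% to 53.4% in males and 0% to 37.1% in females. The levels of these paralogs are uncertain where the estimation had to split reads that fit both.

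A whole zebrafish kidney also holds red blood cells and endothelium. The erythroid markers summed to between 10704 and 39266 CPM in males and between 15510 and 50314 CPM in females, and 0 of 8 genes were called by edgeR or by DESeq2 (2 had an unadjusted p under 0.05 in edgeR). The endothelial markers summed to between 251 and 386 CPM in males and between 219 and 297 CPM in females, where 0 of 7 were called by edgeR or by DESeq2 and 2 had an adjusted p under 0.05 (edgeR). These 2, *kdrl* and *flt1*, were higher in males at log2 fold changes of 0.76 and 1.47, and *flt1* did not overlap between the sexes. The log2 fold changes of the 7 ran between -0.36 and 1.47. The part of these cells in the GLUT1 levels was not tested.

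The genes of GLUT8 and GLUT10 were also low. The GLUT8 gene *slc2a8* (chromosome 5, 65970235 to 65986604) had between 0.434 CPM in pkd1M4 and 3.53 in pkd1M1 among males, with 2.21 in M1 and 1.07 in M2, against females at 5.37 (F1), 3.92 (F2), 2.35 (F3), 4.22 (F4) and 2.40 (F6). Females were higher by the mean, and pkd1M1 overlapped them. The log2 fold change was -1.01 ± 0.62 (SE, edgeR, adjusted p = 0.347). The GLUT10 gene *slc2a10* (chromosome 11, 2448781 to 2456786) had 1.69 to 2.63 CPM in males and 0.761 to 3.83 CPM in females, so that the females spanned the males (log2 fold change -0.18 ± 0.55 SE, adjusted p = 0.885, edgeR).

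The headers name the deposited values scaledTPM, a scale from which transcript length has already been divided out, although the methods of the study also call them length-scaled, and the order of levels between genes holds only on the first reading. In males the order of mean CPM was *slc5a1*, *slc2a12*, *slc5a2*, *slc2a2*, *slc2a1b*, *slc2a1a*, *slc2a10* and *slc2a8*. In females it was *slc2a12*, *slc5a2*, *slc5a1*, *slc2a2*, *slc2a8*, *slc2a1b*, *slc2a10* and *slc2a1a*. In both sexes the step from *slc2a2* to the next gene was the single step of neighbours with no overlap between libraries. It set 4 abundant transporters apart from 4 low ones. Of the summed CPM of the 8 genes, *slc5a1* took 46.0% in males and 12.5% in females, and *slc2a12* took 23.9% in males and 41.0% in females.

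In a bulk library, fewer cells of a type and less RNA per cell cannot be told apart. The transporters were also set against the tubule markers, as a description that does not separate the 2. The proximal tubule markers summed to 3050 (M1), 1930 (M2), 3300 (pkd1M1) and 2847 (pkd1M4) CPM in males, against 1711 (F1), 1827 (F2), 2203 (F3), 1189 (F4) and 4158 (F6) CPM in females. The sexes overlapped, F6 was the highest of all 9 libraries and F4 the lowest, as for *slc5a2*. Of the 9 markers tested 1 was called, the cystine transporter subunit gene *slc7a9*, higher in males at a log2 fold change of 2.16 (adjusted p = 0.0132, edgeR). Among males it had 372 CPM in pkd1M1 and between 66.3 and 117 CPM in the others. The log2 fold changes of the 9 ran between -0.70 and 2.16, with a median of 0.23. Those of *lrp2a*, *slc4a4a* and *fbp1b* were negative, at -0.42, -0.70 and -0.45, and none of these was called.

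Per 100 CPM of summed proximal tubule markers, *slc5a1* had 14.3 ± 1.88 CPM in the males (n = 4) and 3.15 ± 0.49 CPM in the females (n = 5, ± SD). The male libraries lay between 11.9 and 16.5 and the female libraries between 2.65 and 3.73 on this scale, so the sexes stayed apart, and the spread within a sex was a smaller part of its mean than for plain CPM. On the same scale *slc2a2* had 2.92 ± 0.78 CPM in the males (n = 4) and 2.80 ± 0.34 CPM in the females (n = 5, ± SD). For *slc5a2* the values were 6.08 ± 1.52 CPM in the males (n = 4) and 8.34 ± 1.12 CPM in the females (n = 5, ± SD), and F6, at 9.99, was no longer far from the other females, which lay between 7.22 and 8.97. For *slc2a12* they were 7.58 ± 2.29 CPM in the males (n = 4) and 10.56 ± 2.97 CPM in the females (n = 5, ± SD). This scale was added after the data had been seen, and it is a description without a test.

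**Figure D3:**
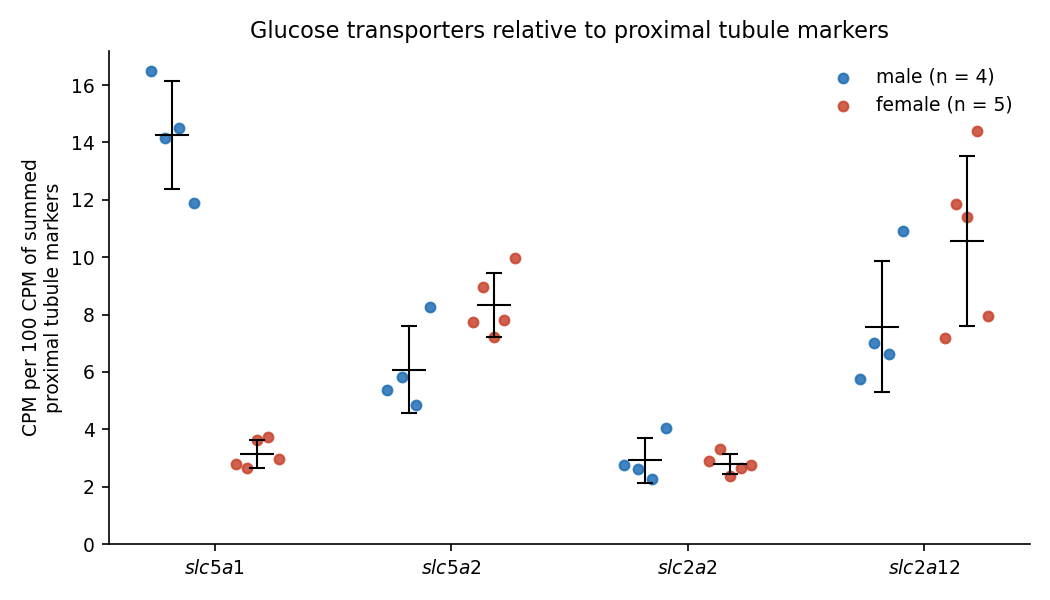
CPM of the 4 abundant glucose transporters per 100 CPM of summed proximal tubule markers in each library, with 4 male (blue) and 5 female (red) libraries; lines are means and bars are 1 SD. *slc5a1* lies between 11.9 and 16.5 in males and between 2.65 and 3.73 in females, while *slc5a2*, *slc2a2* and *slc2a12* overlap between the sexes.

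The distal tubule markers summed to between 2200 and 3017 CPM in males and between 626 and 1639 CPM in females, without overlap, and 3 of 8 were called, *kcnj1a.1*, *atp1a1a.4* and *gata3*, all higher in males, while 7 of 8 had an adjusted p under 0.05 (edgeR). The largest part of this sum was *atp1a1a.4*, which averaged 1530 CPM in males and 466 CPM in females. Per 100 CPM of the distal tubule markers, *slc5a1* had 9.05 to 21.7 CPM in males and 5.06 to 11.05 CPM in females, which overlap. On this scale *slc5a2* had 3.72 to 8.31 CPM in males and 14.9 to 25.3 CPM in females, which do not overlap. Both comparisons rest largely on *atp1a1a.4*, which was itself called higher in males. SGLT1 is also the glucose cotransporter of the intestine. The intestine markers summed to between 153 and 278 CPM in males and between 58.3 and 118 CPM in females, without overlap. Most of the sum was *vil1*, a brush border gene that the kidney tubule shares. It did not overlap between the sexes, and its log2 fold change of 1.25 (adjusted p = 0.019, edgeR) was under the limit on the fold change. The fatty acid binding protein gene *fabp2*, 1 of 3 intestine markers tested and the 1 called, had 6.20 (M1), 18.1 (M2), 7.61 (pkd1M1) and 46.9 (pkd1M4) CPM in males, against 0.919 (F1), 4.51 (F2), 0.557 (F3), 0.228 (F4) and 1.503 (F6) CPM in females. The sexes did not overlap in *fabp2*. The genes *apoa4a*, *apoa4b.1* and *chia.1*, below the filter, averaged under 1 CPM in both sexes. The third gene tested, the intestinal transcription factor gene *cdx1b*, averaged 3.54 CPM in males and 3.37 CPM in females (log2 fold change 0.07, adjusted p = 0.938, edgeR). The part of the distal and intestine markers in the sex difference of *slc5a1* was not tested.

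Correlation of log2 CPM over the 9 libraries includes, for *slc5a1*, the difference between the sexes. It was used to find the genes closest in pattern to the 3 most abundant of the 8 transporters. For *slc5a1* these were *pttg1ipb*, *prr15la* and *tmem108*, with Pearson's r of 0.996, 0.993 and 0.992 (Spearman's rho 0.967, 0.933 and 0.95), and all 3 were themselves called higher in males at log2 fold changes of 1.57, 2.31 and 1.68. For *slc5a2* they were *fbp1b*, a gluconeogenesis enzyme gene and 1 of the proximal tubule markers, the neutral amino acid transporter gene *slc6a18*, and *loxhd1b*, with r of 0.977, 0.968 and 0.967 (rho 0.883, 0.867 and 0.983). Their adjusted p-values lay between 0.659 and 0.881 (edgeR). For *slc2a12* they were *lyplal1*, *C13H10orf53* and *slc9a5*, with r of 0.919, 0.91 and 0.908 (rho 0.85, 0.917 and 0.917). These were picked as the highest among tested genes with a symbol, and the 9 points differ together in depth, tissue makeup and sex.

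Of 26 relatives in the SLC2 and SLC5 families, 22 were matched in the table and 19 passed the filter. Among them 6 were called, 5 higher in males and 1 in females, beside 6.54% of all genes tested. The median log2 fold change of the 19 was 0.24. The genes higher in males were the GLUT9-like gene *slc2a9l1*, of which mammalian GLUT9 carries urate, the GLUT11-like genes *slc2a11a*, *slc2a11b* and *slc2a11l*, and *slc5a8l*, a relative of the sodium-coupled monocarboxylate transporters.

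The gene *slc2a11l* lies on chromosome 10 as does *slc5a1*, 326183 bases away. It had 607 (M1), 419 (M2), 545 (pkd1M1) and 498 (pkd1M4) CPM in males, against 62.4 (F1), 57.3 (F2), 79.7 (F3), 40.7 (F4) and 121 (F6) CPM in females. Its male libraries were all above its female ones, with 2.84 ± 0.30 (SE) on the log2 scale (edgeR, adjusted p = 0.000429). The log2 fold changes of *slc2a9l1*, *slc2a11a*, *slc2a11b* and *slc5a8l* were 5.004, 2.40, 3.41 and 3.22. The end of *slc2a11a* overlaps *tgfa* by 275 bases, and the copies of *slc2a11* could share reads.

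The relative higher in females was *slc2a6*, encoding GLUT6, which mammalian macrophages carry on lysosomes. It had 23.1 (M1), 24.4 (M2), 14.8 (pkd1M1) and 9.10 (pkd1M4) CPM in males, against 227 (F1), 313 (F2), 334 (F3), 210 (F4) and 82.1 (F6) CPM in females. All females were above all males, F6 the least so, and the log2 fold change was -3.71 ± 0.46 (SE, edgeR, adjusted p = 0.000929). Of the 6 myeloid markers, 1 was called, *csf1ra*, at a log2 fold change of -2.19, and 3 had an adjusted p under 0.05 (edgeR), *csf1ra*, *spi1b* and *mpeg1.1*, each lower in males without overlap between the sexes. The log2 fold changes of the 6 ran between -2.19 and -0.05, and the list summed to between 1946 and 3764 CPM in males and between 3194 and 5634 CPM in females. The part of myeloid cells in the level of *slc2a6* was not tested.

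Among the relatives that were not called, the most abundant were the lactate cotransporter gene *slc5a12*, the GLUT3 gene *slc2a3b* and the SGLT4 gene *slc5a9*. The gene *slc5a12* averaged 505 ± 116 CPM in the males (n = 4) and 308 ± 139 CPM in the females (n = 5, ± SD) (log2 fold change 0.71, adjusted p = 0.169, edgeR). For *slc2a3b* the means were 20.7 ± 6.06 CPM in males and 48.8 ± 14.99 CPM in females, and the adjusted p of 0.0214 (edgeR) came with a log2 fold change of -1.24, under the limit. For *slc5a9*, whose mammalian protein carries mannose and glucose, they were 35.3 ± 7.91 CPM in males and 17.07 ± 6.06 CPM in females (log2 fold change 1.05, adjusted p = 0.0295, edgeR), which was also under the limit on the fold change.

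Of 24 names for partners and regulators of glucose reabsorption and the enzymes next to it, 20 genes were tested. Among these 3 were called, beside 6.54% of all genes tested, and the median log2 fold change of the 20 was 0.63. The transcription factor gene *hnf1bb*, whose mammalian counterpart governs tubule genes, had 420.4 (M1), 388 (M2), 642 (pkd1M1) and 732 (pkd1M4) CPM in males, against 91.3 (F1), 112 (F2), 108 (F3), 109 (F4) and 139 (F6) CPM in females. The sexes were far apart (2.29 ± 0.23 (SE) on the log2 scale, adjusted p = 0.000359, edgeR). The sodium-proton exchanger gene *slc9a3.2* averaged 151 ± 54.7 CPM in the males (n = 4) and 21.6 ± 10.05 CPM in the females (n = 5, ± SD) (log2 fold change 2.80, adjusted p = 0.00107, edgeR).

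The gene lower in males was *hk2*, encoding hexokinase 2, which traps glucose in cells by phosphorylation. It had 34.6 (M1), 40.8 (M2), 25.3 (pkd1M1) and 20.7 (pkd1M4) CPM in males, against 139 (F1), 116 (F2), 133 (F3), 102 (F4) and 60.2 (F6) CPM in females. The sexes did not overlap (log2 fold change -1.86 ± 0.29 SE, adjusted p = 0.00285, edgeR). The summed myeloid markers, given above, were also higher in females by the median, and their part in *hk2* was not tested.

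Among the partners not called, *pdzk1ip1* encodes MAP17, which in humans is the activating partner of SGLT2. It had 1055 (M1), 660 (M2), 968 (pkd1M1) and 940 (pkd1M4) CPM in males, against 399.6 (F1), 461 (F2), 478 (F3), 344 (F4) and 757 (F6) CPM in females. Only F6 reached the males, and the log2 fold change of 0.89 ± 0.24 SE (adjusted p = 0.0349, edgeR) was under the limit on the fold change. The scaffold gene *pdzk1*, of the brush border, had a log2 fold change of 0.83 (adjusted p = 0.17, edgeR), and *txnipa*, whose mammalian counterpart lowers glucose uptake by binding GLUT1, had -0.55 (adjusted p = 0.101, edgeR).

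**Figure D4:**
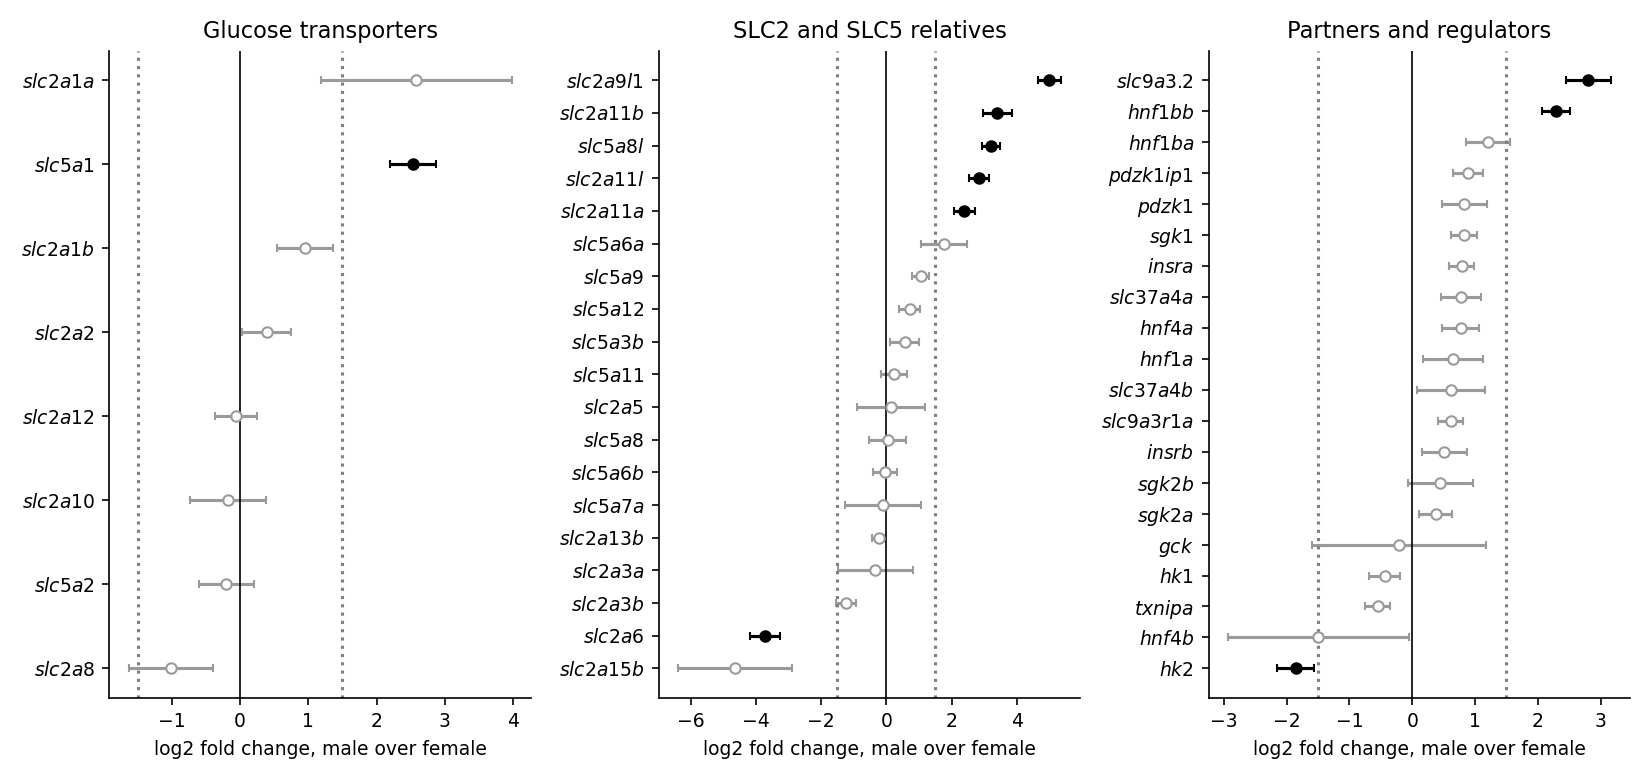
log2 fold change, male over female, of the 8 glucose transporters, their 19 tested SLC2 and SLC5 relatives and 20 tested partners and regulators; bars are standard errors from the edgeR fit, filled black points passed both thresholds and dotted lines mark 1.5 and -1.5. 1 of 8, 6 of 19 and 3 of 20 genes are filled, and *slc2a1a* has a point near that of *slc5a1* with a much wider bar.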

How the data were processed

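RNA of zebrafish kidneys was extracted with TRIZOL and made into libraries with the TruSeq RNA kit version 2. The authors quantified transcripts with Kallisto and summed them to genes with tximport, and each deposited value is an estimated count, that is TPM scaled to library size, in whole numbers and not normalized between libraries. Their methods name GRCz11 with Ensembl annotation release 101, and coordinates are taken as that build; the submitters' processing notes name GRCz10. Columns were mapped by name to a sample, or for pkd1M1, pkd1M4 and F6 to a sex only, and 0 columns of per-sample values were left unused.

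Genes kept by filterByExpr were normalized with TMM and fitted on sex alone in edgeR 4.0.16 by quasi-likelihood (R 4.3.3), with Benjamini-Hochberg adjustment over all genes tested. The code was tested on simulated data. DESeq2 1.42.0 was an alternative. Interval floors used 3 counts.

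The 8 genes, the lists of relatives, partners and markers, and the tests were chosen with earlier results of these data known. Beyond the 8, the text names, of the relatives and the partners, those past both thresholds and the 3 most abundant of the others per list, and the 3 closest in log2 CPM (prior count 2) to each of the 3 most abundant transporters; other genes (markers, and further relatives and partners in the closing section) were named after their values were seen. Alternatives were RLE factors, other filters and tests, no fold limit, each library left out, the libraries named pkd1 left out or given a term, and a replicate block. Figures used matplotlib 3.10.9.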

Additional observations from a re-analysis of the deposited data

Results flagged for a closer look

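In females *slc5a2* reached 415 CPM in F6, against 164 CPM in the next highest library, a gap of 0.78 of the range of the 5 libraries. F6 also had the highest sum of proximal tubule markers, and per 100 CPM of these markers its *slc5a2* was 9.99, against 7.22 to 8.97 in the other females. That sum includes *fbp1b*, the gene closest in pattern to *slc5a2*, so the ratio is not independent of *slc5a2*. In males the summed CPM of the 8 transporters was 594 in M2, against 938 in the next lowest library, a gap of 0.84 of the range of 4. M2 was the lowest male for *slc5a1*, *slc5a2*, *slc2a2* and *slc2a12* and the highest for *slc2a1a* and *slc2a1b*. These are 2 of 22 groups looked at, where chance flags about 1 in 20.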

How the results depend on the processing

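The call of *slc5a1*, and of no other transporter among the 8, held in all 19 alternatives, with log2 fold changes of 2.40 to 3.01 and adjusted p-values of 3.37e-12 to 0.0409; the count was 1 whichever library was left out. In that setting the counts called were 6 to 7 relatives, 3 to 4 partners and 1086 (without pkd1M1) to 1707 (without F6) genes of all tested, where *slc2a15b* joined the relatives without pkd1M4 (and with DESeq2 or the block) and *hnf1ba* the partners without F6. With no limit on the fold change 7 partners and 2928 of all genes passed. Over all genes the count was 635 without the libraries named pkd1, 637 with a term for them, 859 with the replicate number as a block and 355 with M1, M2, F1 and F2 alone, a setting added after the data had been seen; fewer libraries are part of the construction of all of these but the term, and otherwise the cause was not tested. The main count was 1448. The block, over the same 4 libraries, changed no call among the 8. The deviations of M1 and F1 from their sex means correlated at 0.033 and those of M2 and F2 at -0.031. Pairs of unlike number lay between -0.022 and 0.053. These values show no pairing by number, and so few pairs cannot exclude it. Among the 8, signs turned only for genes that were not called. For *slc2a12* the log2 fold change was 0.02 without M1, 0.10 without M2 and 0.14 without F6, for *slc5a2* 0.29 without F6, and for *slc2a10* 0.054 without F3, 0.40 with the block and 0.077 with those 4 libraries alone. With each library left out in turn the values ran between -0.41 and 0.054 for *slc2a10*, -0.31 and 0.14 for *slc2a12* and -0.41 and 0.29 for *slc5a2*. The mean share of *slc5a2* in its pair stayed between 26.3% and 31.7% in males and between 71.2% and 73.9% in females with any library left out, and that of *slc2a1a* between 22.9% and 40.7% in males and between 13.8% and 23.05% in females. The GLUT1, GLUT8 and GLUT10 genes were low, and the part of depth in their spread was not tested. Of these only *slc2a1a* had a count of 0, which allows up to 0.100 CPM in pkd1M4 and 0.0684 CPM in F4 if 1 deposited unit is 1 read.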

Other observations

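The glucose-6-phosphate transporter gene *slc37a4a*, which in mammals carries glucose-6-phosphate into the endoplasmic reticulum for glucose release, averaged 42.9 ± 15.7 CPM in the males (n = 4) and 25.03 ± 8.91 CPM in the females (n = 5, ± SD) (log2 fold change 0.78, adjusted p = 0.146, edgeR). The insulin receptor genes had log2 fold changes of 0.78 for *insra* (85.7 CPM in males and 49.8 CPM in females, adjusted p = 0.0258, edgeR) and 0.51 for *insrb* (15.6 CPM in males and 10.9 CPM in females, adjusted p = 0.418, edgeR), where the first missed the limit on the fold change and the second both thresholds. The kinase gene *sgk1*, whose product raises SGLT1 activity in expression systems, had 237 CPM in males and 134 CPM in females by the means, without overlap between the sexes (log2 fold change 0.82, adjusted p = 0.0268, edgeR). The myo-inositol cotransporter gene *slc5a11*, a close relative of the SGLT genes, averaged 23.1 CPM in males and 19.6 CPM in females (log2 fold change 0.24, adjusted p = 0.771, edgeR). The genes of this paragraph were named after their values were seen.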
